A study of Mus musculus with 7 samples.

Results

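Transcripts of 7 lysosomal cathepsins and 2 cystatins, 9 of the 20343 genes of the count table, were followed in the hearts of 7 mice. They were chosen by name, as Ctss, Ctsc, Ctsz, Ctsk, Ctsd, Ctse, Ctsa, Cst3 and Cst7, and each name matched 1 row. All mice were of the strain labelled NSG-DRB1*0101 (NSG-DR1), an immunodeficient mouse with a human HLA-DR1 transgene that lacks T, B and NK cells of its own and keeps macrophages and neutrophils. The 4 control hearts (h1, h2, h3 and h4) came from untreated mice and the 3 transferred hearts (h1, h45 and h7) from mice that had received human CD4+ T cells 6 weeks earlier. The labels give neither the age of the mice nor the donors of the cells, and name no sham transfer for the controls. Polyadenylated RNA came from the apical region of the myocardium, and the series title places the comparison in the study of inflammation of the ageing heart. Each heart has an identifier of its own in the labels, and p-values measure the spread between these hearts.

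Cathepsins are proteases of the lysosome, the acidic compartment in which cells degrade proteins from outside and inside. Most of them are cysteine proteases, Ctsd and Ctse are aspartic proteases and Ctsa is a serine carboxypeptidase. Cystatins bind cysteine cathepsins and block them. In the heart, cathepsin D serves protein turnover in all cells, while cathepsin S is best known from macrophages and dendritic cells, where it trims the invariant chain of MHC class II molecules.

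The stretches upstream of the start of 4 genes are shown because these genes differ in the results below, from Ctss, with the largest difference between the groups among the tested members, through Ctsc and Cst3 to Ctsd, whose level was nearly the same in both. Each is the 250 bases before a transcript start in RefSeq on build GRCm38.p6, 5′ to 3′ on the strand of the gene. Capitals mark matches on either strand to any of the motifs GAGGAA (core of the site of the myeloid factor PU.1), GAAA and GAAA set 2 bases apart (interferon-stimulated response element), TTC and GAA set 3 bases apart (gamma-activated site) and CACGTG (E-box, the centre of the element bound by the lysosomal regulator TFEB).
Ctss upstream, chr3:95526536-95526785, plus strand: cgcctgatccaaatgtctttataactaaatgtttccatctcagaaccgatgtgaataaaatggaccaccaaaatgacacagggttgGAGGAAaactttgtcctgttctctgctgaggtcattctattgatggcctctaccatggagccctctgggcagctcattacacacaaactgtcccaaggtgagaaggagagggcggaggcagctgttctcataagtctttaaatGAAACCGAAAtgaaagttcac
Ctsc upstream, chr7:88277835-88278084, plus strand: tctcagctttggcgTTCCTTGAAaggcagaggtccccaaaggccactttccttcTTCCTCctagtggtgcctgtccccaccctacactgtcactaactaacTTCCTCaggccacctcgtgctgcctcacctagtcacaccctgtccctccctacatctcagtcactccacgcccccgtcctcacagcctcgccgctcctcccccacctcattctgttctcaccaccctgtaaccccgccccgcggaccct
Cst3 upstream, chr2:148875513-148875762, minus strand: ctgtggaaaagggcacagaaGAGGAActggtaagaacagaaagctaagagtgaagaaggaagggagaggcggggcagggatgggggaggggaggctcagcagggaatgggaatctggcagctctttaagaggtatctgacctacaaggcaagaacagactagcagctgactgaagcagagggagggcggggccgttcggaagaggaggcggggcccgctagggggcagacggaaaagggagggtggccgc
Ctsd upstream, chr7:142387828-142388077, minus strand: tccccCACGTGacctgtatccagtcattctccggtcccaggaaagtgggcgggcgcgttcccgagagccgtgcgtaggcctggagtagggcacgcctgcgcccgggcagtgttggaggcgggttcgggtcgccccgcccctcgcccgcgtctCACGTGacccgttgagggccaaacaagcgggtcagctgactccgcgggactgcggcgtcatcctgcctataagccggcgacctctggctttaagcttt

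Ctss held GAAACCGAAA, a match to the interferon element that begins 21 bases before the start, and GAGGAA at 164 bases. Windows with the interferon element make up 2.98% of the 32841 upstream windows of this length, and windows with GAGGAA 23.3%. Ctsc held GAGGAA on the other strand at 196 and 149 bases and TTCCTTGAA at 236 bases, a motif found in 7.02% of windows. The Ctsc window precedes a transcript start inside the span that the count table gives for the gene. Cst3 held GAGGAA at 230 bases. Ctsd held CACGTG at 245 and 98 bases, a motif present in 6.02% of windows. Of the members not shown, Ctsa held CACGTG at 12 bases before the second of its RefSeq starts, Ctsk held GAGGAA at 233 and 58 bases, and Ctsz and Cst7 held none of these motifs. None of the matches overlap each other, and a match describes these letters only.

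Over the part of the genome in the table, the hearts held between 16402179 and 25190560 counts, and 3 counts correspond to between 0.115 and 0.189 counts-per-million (CPM) in a heart. Levels below are CPM scaled by TMM, the trimmed mean of M values, and levels between genes are compared as CPM per kilobase of combined exons. Differences are log2 fold changes of transferred over control hearts from the edgeR quasi-likelihood test, adjusted over all 7667 genes tested. The cardiomyocyte markers, 8 of 12 in the table, summed to between 127420 and 146330 CPM in control and between 123180 and 153220 CPM in transferred hearts. T cell markers, 7 of 12 in the table, summed to at most 38.3 CPM in control and 36.0 CPM in transferred hearts on the mouse genes, most of it Cd28. In bulk RNA, more cells of a type and more RNA per cell cannot be told apart.

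Of the 9 members, 6 passed the filter on low counts, at levels well above it in both groups, and Ctsk, Ctse and Cst7 did not. None of the 6 tested members had an edgeR adjusted p-value under 0.05, against 0.235% of all tested genes. Unadjusted p-values were under 0.05 for 4 members, Ctss, Ctsc, Ctsz and Cst3, each with a higher mean in transferred hearts, against 7.17% of all tested genes on that side. The count was 2 without control heart h2 or without transferred heart h45, where the number over all genes and both directions also went down, from 954 to 658 and 706. In Ctss, Ctsc and Cst3 every transferred heart lay above every control heart, against 5.99% of tested genes. The log2 fold changes of the 6 ran from 0.07 to 1.09 with a median of 0.27, beside a median of -0.002 over all tested genes. DESeq2 called 3 members, Ctss, Ctsc and Cst3, where it called 3.29% of all genes, and voom of limma called 0.

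**Figure D1:**
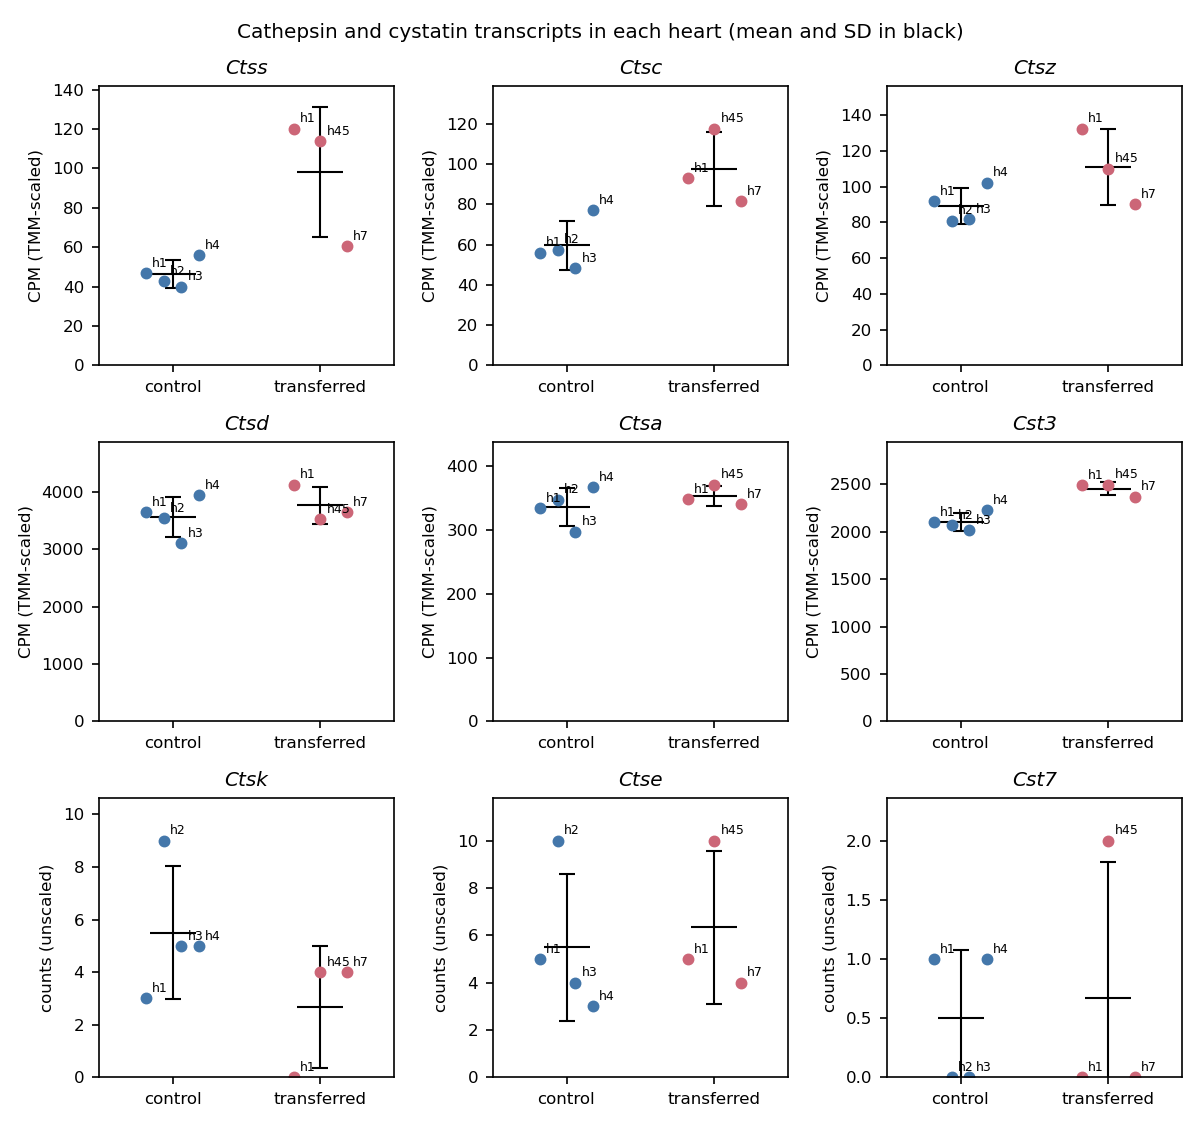
Level of each member in each heart, as TMM-scaled CPM for the 6 tested members and as unscaled counts for Ctsk, Ctse and Cst7, with points for hearts and black bars for the mean and SD of 4 control and 3 transferred hearts. Ctss, Ctsc and Cst3 do not overlap between the groups, and transferred heart h7 is the lowest transferred heart in each of them.

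Ctss, the cathepsin S of antigen-presenting cells (chromosome 3, 95526786 to 95556405, GRCm38), differed most. Its level was 46.7, 42.6, 40.0 and 56.0 CPM in control hearts h1 to h4 and 120.2, 113.8 and 60.4 CPM in transferred hearts h1, h45 and h7. Transferred h1 and h45 thus stood far above all controls, and h7 stood just above control heart h4. The mean was 46.3 ± 7.03 CPM (SD, n = 4) against 98.2 ± 32.8 CPM (SD, n = 3), a 2.12-fold difference, or 1.09 on the log2 scale (SE 0.23, edgeR adjusted p = 0.106). Its exact two-sided permutation p over the 35 splits of the hearts was 0.0286, the smallest they allow. Among all tested genes, 158 had a higher log2 fold change. Without transferred heart h7 the log2 fold change was 1.34 and passed the threshold (edgeR adjusted p = 0.00512), as did 1.8% of the genes tested without that heart, and DESeq2 also called it with all 7 hearts (adjusted p = 0.000126).

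Ctsc, cathepsin C or dipeptidyl peptidase 1 (chromosome 7, 88278024 to 88315861), activates the serine proteases of neutrophil and lymphocyte granules by trimming their ends. It was at 56.0, 57.4, 48.1 and 77.0 CPM in control hearts h1 to h4 and at 92.9, 117.5 and 81.7 CPM in transferred hearts h1, h45 and h7. The groups did not overlap, with a narrow gap between control heart h4 and transferred heart h7. Means were 59.6 ± 12.3 CPM (SD, n = 4) and 97.4 ± 18.3 CPM (SD, n = 3), giving for Ctsc a log2 fold change of 0.71 (SE 0.17, edgeR adjusted p = 0.127). Here h45, not h1, was the highest heart. DESeq2 gave an adjusted p of 0.00466, and the exact two-sided permutation p was 0.0571.

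Ctsz, cathepsin Z (also called cathepsin X, a carboxypeptidase that removes single residues), lies on chromosome 2 (174427494 to 174439039). Control hearts h1 to h4 held 92.1, 81.0, 81.8 and 102.2 CPM, and transferred hearts h1, h45 and h7 held 132.4, 110.0 and 90.3 CPM. Transferred h7 was below control h1 and h4, so the groups overlapped. The log2 fold change was 0.31 (SE 0.13, edgeR adjusted p = 0.371). Without transferred heart h1 it was 0.17. The 3′ end of Ctsz, at 174427494, overlaps the end of Nelfcd, at 174427505, on the opposite strand. This stretch is shorter than a read of 75 bases. The counting is not stated to use strand, so reads from that short overlap cannot be told apart.

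Ctsk, cathepsin K (chromosome 3, 95499210 to 95509387), the collagen-degrading protease of osteoclasts, ends 17398 bases before Ctss begins. The 4 control hearts held 3, 9, 5 and 5 counts of Ctsk in the order h1 to h4, and the transferred hearts h1, h45 and h7 held 0, 4 and 4. Summed over the group, control hearts held 22 counts, or 0.161 to 0.389 CPM by the exact 95% Poisson interval, and transferred hearts 8 counts, or 0.0564 to 0.257 CPM. These intervals overlap. They cover counting error alone and leave out the spread between hearts, because the counts were pooled over a group. Without molecular identifiers the reads are not independent molecules, so the intervals may be too narrow even for counting error. The 0 counts in transferred h1 allow up to 0.152 CPM. A difference in Ctsk was not detectable at this depth, although Ctss next to it had at least 888 counts in every heart.

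Ctsd, cathepsin D (chromosome 7, 142375910 to 142387827), is the main aspartic protease of the lysosome. It was by count the most abundant member, at 3656, 3544, 3109 and 3950 CPM in control hearts h1 to h4 and at 4130.3, 3533 and 3645 CPM in transferred hearts h1, h45 and h7. The transferred hearts fell within the control range except for h1, which was the highest of all. Means of 3565 ± 349 CPM (SD, n = 4) and 3769.5 ± 317 CPM (SD, n = 3) differed by less than either SD. The log2 fold change was 0.08 (SE 0.11, edgeR adjusted p = 0.821), and between 0.011 and 0.133 with 1 heart left out. Ctse, cathepsin E (chromosome 1, 131638314 to 131675507), the aspartic protease of the stomach lining and of some immune cells, had 3 to 10 counts in a control heart and 4 to 10 in a transferred heart. Its sums of 22 and 19 counts correspond to 0.161 to 0.389 CPM and 0.187 to 0.484 CPM, and no difference was detectable. These Poisson intervals also leave out the spread between hearts.

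Ctsa, cathepsin A (chromosome 2, 164832872 to 164841032), also called protective protein, stabilises beta-galactosidase and neuraminidase in the lysosome. Control hearts h1 to h4 were at 334, 348, 297 and 367 CPM and transferred hearts h1, h45 and h7 at 349, 371 and 341 CPM. The groups overlapped almost fully, and the log2 fold change was 0.07 (SE 0.09, edgeR adjusted p = 0.804). With 1 heart left out it was between 0.017 and 0.116. Ctsa shares its ends with Neurl2 and Pltp on the opposite strand over far longer stretches than Ctsz shares with Nelfcd. There too, reads from the overlaps cannot be told apart.

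Cst3, cystatin C (chromosome 2, 148871722 to 148875512), is a secreted inhibitor of cysteine cathepsins made by most cells. Control hearts h1 to h4 were at 2097, 2068, 2014 and 2229 CPM, and transferred hearts h1, h45 and h7 at 2489.5, 2495.7 and 2370.5 CPM. All transferred hearts were above all controls, and the spread within each group was the smallest of the tested members, with a coefficient of variation of 4.35% in control and 2.88% in transferred hearts. Its means were 2102 ± 91.4 CPM (SD, n = 4) and 2452 ± 70.6 CPM (SD, n = 3), a 1.17-fold difference. The log2 fold change was 0.22 (SE 0.08, edgeR adjusted p = 0.292), and DESeq2 gave an adjusted p of 0.0448. Exact permutation gave a two-sided p of 0.0286. Cst7, cystatin F (chromosome 2, 150570415 to 150578944), an inhibitor made by immune cells that acts on cathepsin C, had 1, 0, 0 and 1 counts in control hearts h1 to h4 and 0, 2 and 0 in transferred hearts h1, h45 and h7. It stayed below 3 counts in every heart, so no fold change is given.

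Per kilobase of exon, Cst3 had the highest level of the members, 2641 CPM per kilobase in control and 3080.3 in transferred hearts, and stood at place 26 and 20 of the 20343 genes. Ctsd followed at 1859.5 and 1966 CPM per kilobase, at places 38 and 36. Together these 2 genes made up between 89.4% and 91.6% of the summed CPM of the 9 members in a heart. Ctsa came next at 91.5 and 96.2 CPM per kilobase, then Ctsz at 62.0 and 77.0. Ctss was at 32.03 and 67.8 CPM per kilobase, so that in transferred hearts h1 (83.1) and h45 (78.7) it lay between the 62.7 and 91.9 that Ctsz spanned there. Ctsc was at 5.35 and 8.74 over its long annotated exons, and the means of Ctse, Ctsk and Cst7 were under 0.15 in both groups. The levels of Ctss and Ctsz in transferred hearts thus did not differ beyond their spread, while each other pair of neighbours from Cst3 down to Ctsc was separate over the hearts of a group.

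Ratios of counts within a heart do not depend on the scaling of libraries. For every 100 Cst3 counts there were 2.23, 2.06, 1.99 and 2.51 Ctss counts in control hearts h1 to h4 and 4.83, 4.56 and 2.55 in transferred hearts h1, h45 and h7. The Ctss transcript relative to the Cst3 transcript was thus higher in h1 and h45 than in any control, and in h7 it sat at the edge of the controls. The proteins were not measured. The log2 ratio differed by 0.81, from -5.51 ± 0.15 (SD, n = 4) to -4.71 ± 0.51 (SD, n = 3), with an exact two-sided permutation p of 0.0286 and 0.114 after Benjamini-Hochberg adjustment over 8 ratios. Ctss relative to Ctsd differed by 0.95 on the log2 scale with the same p-values, and every transferred heart was above every control heart. For Ctsc to Cst3 the difference was 0.49 (exact permutation p = 0.0857, adjusted 0.114), and for Ctsz to Cst3 it was 0.08 (exact permutation p = 0.629). Ctsd and Ctsa relative to Cst3 were lower by -0.14 and -0.15 (exact permutation p = 0.114 and 0.0857, adjusted 0.131 and 0.114), and the first was -0.082 without transferred heart h45. Ratios with Ctsk rest on at most 9 counts and used a pseudocount of 0.5. For Ctss to Ctsk the difference was 2.36 (exact permutation p = 0.0571), which was 1.15 without transferred heart h1, where Ctsk had 0 counts. Ctsk to Cst3 differed by -1.56 (exact permutation p = 0.0857), and by -0.51 without that heart. No ratio passed after adjustment.

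**Figure D2:**
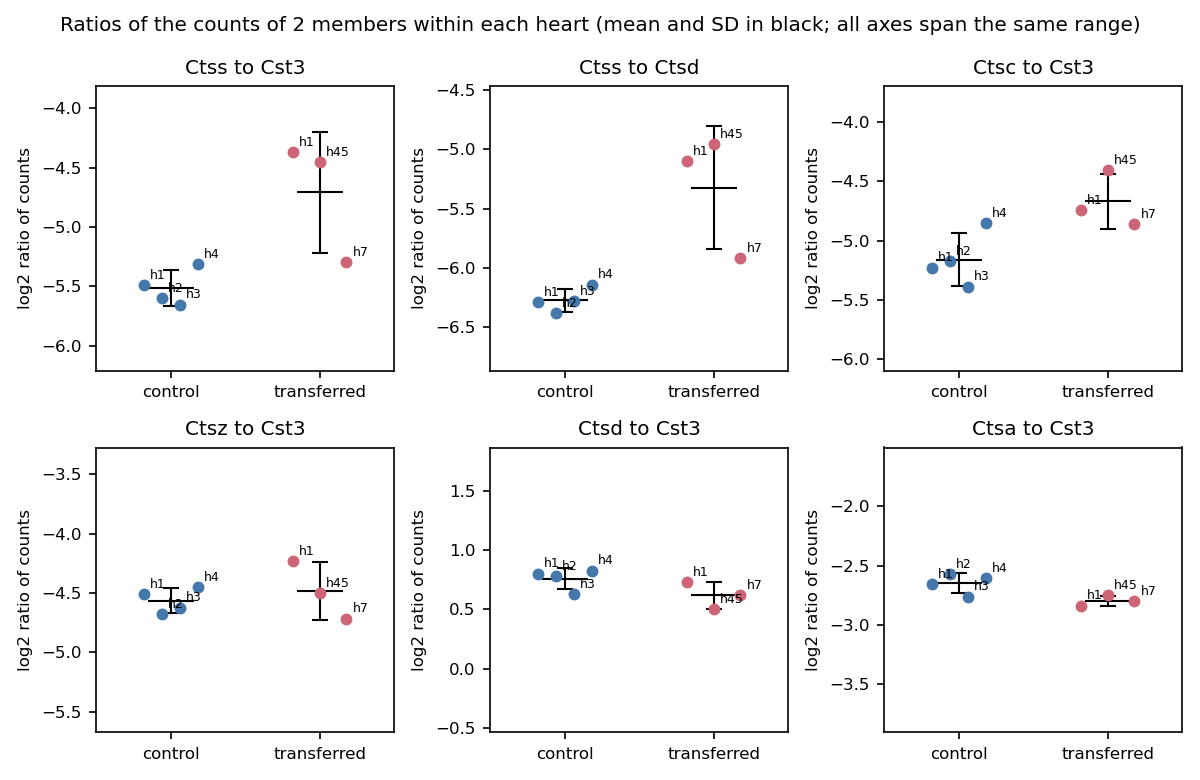
Log2 ratio of the counts of 2 members within each heart, with points for hearts and black bars for the mean and SD of 4 control and 3 transferred hearts. Ctss relative to Cst3 and to Ctsd is highest in transferred hearts h1 and h45, while the other 4 ratios drawn overlap between the groups. The 2 ratios with Ctsk, which also overlap, are not drawn.

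Lysosomal genes outside the 9 members were read from 6 lists of 159 genes in all, of which 54 were in the table and 45 were tested. By edgeR 0 of the 45 had an adjusted p-value under 0.05, and 9, or 20% against 12.4% of all tested genes, had an unadjusted p-value under 0.05 (7 higher, 2 lower). Without transferred heart h7 these were 11 higher and 2 lower, beside 1046 of all genes in both directions. Without transferred heart h45 they were 5 higher and 0 lower, beside 706. DESeq2 called 1, Napsa, against 3.29% of all genes, and voom called 0. With all genes of at least 1 count Napsa passed, against 0.668%, and without transferred heart h7 2 passed, Laptm5 and Napsa, against 1.8%. The median log2 fold change of the 45 was 0.09, beside -0.002 over all tested genes, and 0.04 without transferred heart h1. Of the 15 lysosomal hydrolases tested, 9 had positive and 6 negative log2 fold changes, between -0.13 for Smpd1 (acid sphingomyelinase) and 0.31 for Dpp7 (dipeptidyl peptidase 7). Their median was 0.04, with -0.020 without transferred heart h1, -0.015 within the hearts identified by numbers alone (those without a letter prefix) and 0.13 without transferred heart h7. Fuca1, the lysosomal alpha-fucosidase, had the smallest p-value of this list (log2 fold change 0.23, edgeR adjusted p = 0.401). Acp2, lysosomal acid phosphatase, was at 0.11. Of 23 listed genes of the proton pump that acidifies the lysosome, 10 were in the table and 8 were tested, with a median of 0.07. That median was 0.033 without transferred heart h1 and 0.104 without transferred heart h7. Atp6v1g1 was at 0.15, Atp6v0e2 at -0.16 and Atp6v0a2 at -0.14. In the list for sorting and transcription control, with 7 tested genes and a median of 0.03, Ap4b1 was at -0.23, Tfec at 0.997 and M6pr, a mannose 6-phosphate receptor that carries cathepsins to the lysosome, at 0.11. The median of this list was 0.019 without control heart h3 and 0.082 without control heart h1.

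Lysosomal membrane genes spread more widely, with a median of 0.09 over 11 tested genes. Laptm5, a lysosomal membrane protein of blood cells, was at 70.4 ± 13.9 CPM (SD, n = 4) and 114.0 ± 37.7 CPM (SD, n = 3), or 0.70 on the log2 scale (edgeR adjusted p = 0.300). Mcoln2, a cation channel of lysosomes in immune cells, was at 0.89 ± 0.26 and 1.98 ± 0.57 CPM (SD, n = 4 and 3), or 1.14 on the log2 scale (edgeR adjusted p = 0.212). Abca2, a lysosomal lipid transporter, was at -0.31 (edgeR adjusted p = 0.292). Of the other cathepsins and aspartic or serine lysosomal proteases, Napsa, Ctso and Tpp1 were in the table and tested. Napsa (napsin A) was at 0.302 ± 0.114 CPM (SD, n = 4) and 1.47 ± 0.894 CPM (SD, n = 3). It passed the filter on low counts only through the transferred hearts, where it is high, so its calls support nothing. Ctso, a cysteine cathepsin, was between 47.7 and 58.8 CPM in control hearts and between 62.9 and 68.5 CPM in transferred hearts (log2 fold change 0.30, edgeR adjusted p = 0.199). Tpp1, tripeptidyl peptidase 1, was at 0.09. Among the other cystatins and related inhibitors, 7 were in the table, 5 of them with 0 counts in every heart. Serpinb8, a serpin, was the 1 tested (log2 fold change 0.53, edgeR adjusted p = 0.253).

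**Figure D3:**
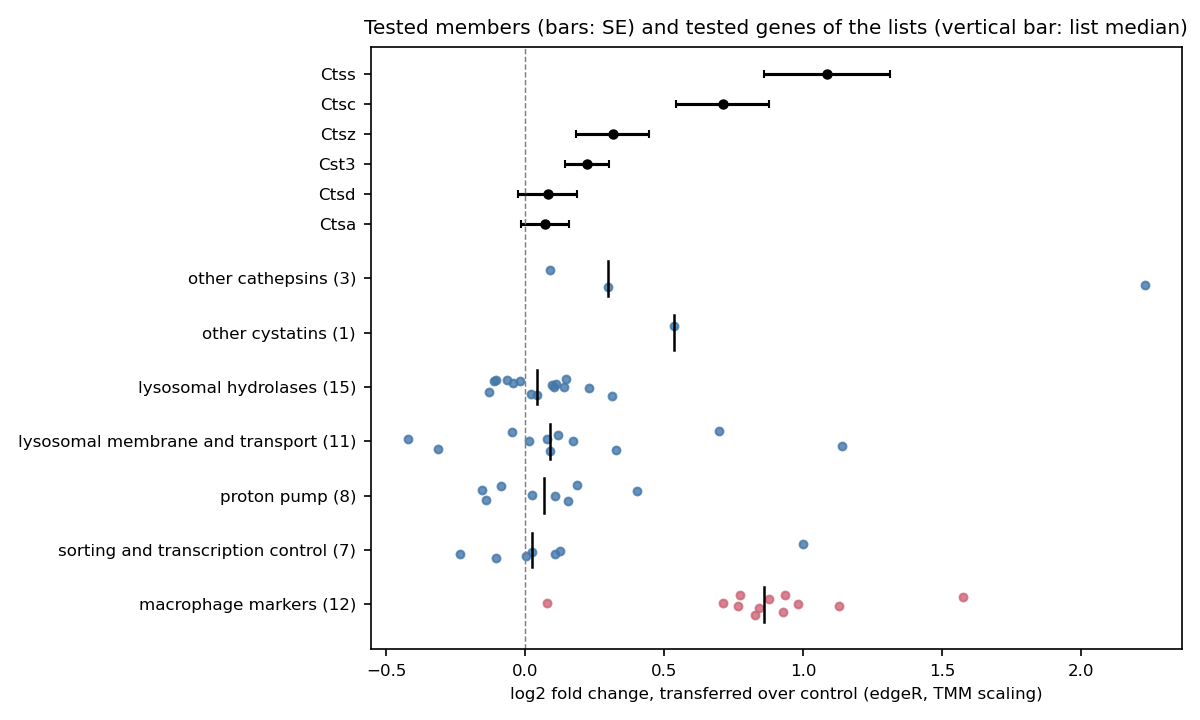
Log2 fold change of transferred over control hearts for the 6 tested members, with bars for the standard error, and for each tested gene of the lists, with a vertical bar at each list's median. Ctss lies among the macrophage markers, whose median is 0.86, and Ctsc lies at their lower edge, below all of them except Mertk. Ctsd and Ctsa lie among the hydrolases, whose median is 0.04.

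Of 20 macrophage markers listed, 12 were in the table and tested, none was at 0, and 2 had an edgeR adjusted p-value under 0.05 (0.0384 for both), against 0.235% of all tested genes. These were C1qb and Mrc1, which rose by 0.98 and 0.77 on the log2 scale. Fcer1g, the shared chain of Fc receptors, was at 0.93 (edgeR adjusted p = 0.0515). The median log2 fold change of the list was 0.86. The count of 2 depended on the setting. It was 3 with RLE scaling, against 0.287% of all genes, 5 with total count scaling, against 0.457%, and 5 with all genes of at least 1 count, against 0.668%. DESeq2 called 11, against 3.29%, and 7 were called without transferred heart h7, against 1.8%. It was 0 with voom, with the identifier form as a covariate, within the hearts identified by numbers alone and without any 1 of the other 6 hearts. Mertk, a receptor for dying cells on macrophages, was at 0.08. Summed over the 12, control hearts h1 to h4 held 589, 581, 499 and 732 CPM, and transferred hearts h1, h45 and h7 held 1119.9, 1279 and 877.7 CPM, so the groups did not overlap. Control h4 and transferred h7 were nearest to each other in this sum, as they were in Ctss and Ctsc. Csf1r, Adgre1, Cd68 and Aif1 are among the 8 listed markers not analysed here. The part of macrophage RNA in the values of Ctss and Ctsc was not tested.

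As a share of the summed macrophage markers of the same heart, Ctss was at 7.93%, 7.33%, 8.02% and 7.65% in control hearts h1 to h4 and at 10.7%, 8.90% and 6.88% in transferred hearts h1, h45 and h7. The transferred values lay on both sides of the controls. Ctsc was at 9.50% to 10.5% in control and at 8.30% to 9.31% in transferred hearts, without overlap. Ctsz was at 13.9% to 16.4% in control and at 8.60% to 11.8% in transferred hearts. These shares carry no test and move with the marker sum, which was higher in transferred hearts. Ctsz itself had a mean of 89.2 CPM in control and 110.9 CPM in transferred hearts.

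**Figure D4:**
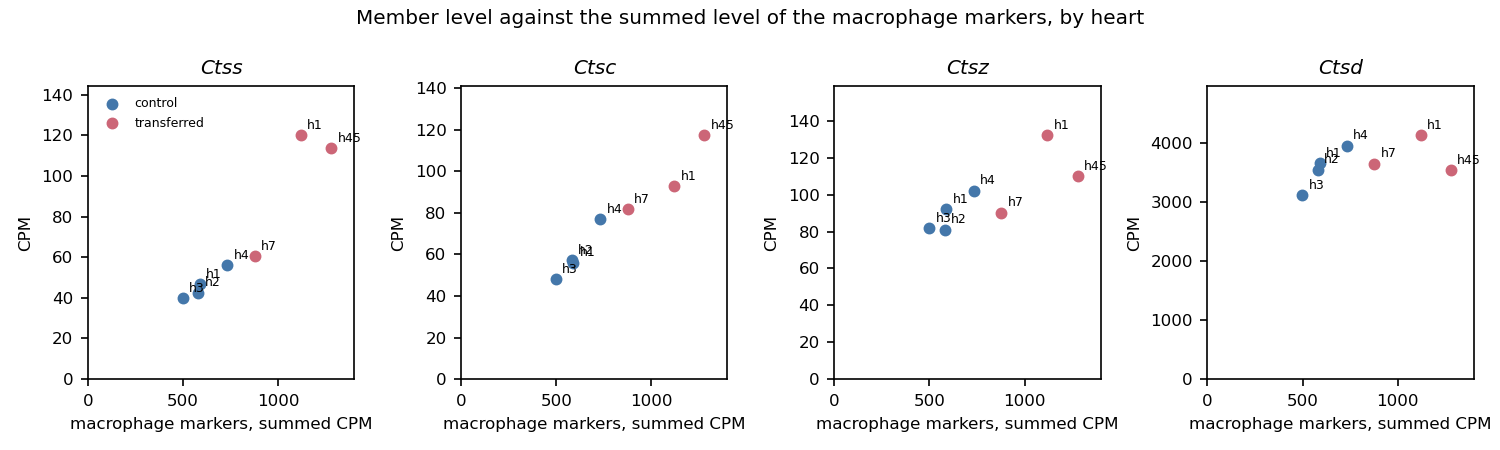
CPM of Ctss, Ctsc, Ctsz and Ctsd against the summed CPM of 12 macrophage markers, 1 point for each of 7 hearts. Ctss and Ctsc are mostly higher in the hearts with higher marker sums, from 499 CPM in control h3 to 1279 CPM in transferred h45, and Ctsd spans a narrow range throughout. The order is not strict, as Ctss is highest in transferred h1 and Ctsc is slightly higher in control h2 than in control h1.

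Neutrophil markers, 6 of 12 in the table and none at 0, summed to between 13.1 and 39.0 CPM in control hearts and to 22.1, 309.7 and 52.9 CPM in transferred hearts h1, h45 and h7. The sum was highest in h45, and in h1 it was within the control range, where Lcn2 alone reached 27.3 CPM. Cxcr2 and S100a8 were above all controls in every transferred heart, as 5.99% of tested genes were, and the other 4 overlapped. Cxcr2, at a mean of 0.487 CPM in control hearts, passed the filter on low counts only through the transferred hearts, where it is high. Its separation and its calls therefore support nothing. The median log2 fold change of the 6 was 2.73, and 1.01 without transferred heart h45. By edgeR 0 of the 6 passed (5 at an unadjusted p-value under 0.05 and higher, against 7.17% of all tested genes), while DESeq2 called 4, against 3.29% of all genes, and voom 0. Both the 5 and the 4 include Cxcr2. Dendritic cell markers, 6 of 10 in the table, summed to between 40.0 and 48.1 CPM in control and between 42.3 and 52.9 CPM in transferred hearts. Most of that sum was Zbtb46, at 37.3 to 44.1 CPM in control and 40.02 to 49.2 CPM in transferred hearts. Itgax, which passed the filter only through the transferred hearts, was at 0.253 ± 0.169 CPM (SD, n = 4) and 0.957 ± 0.348 CPM (SD, n = 3). Siglech was at -0.58 on the log2 scale (edgeR adjusted p = 0.496). Fibroblast markers, 7 of 12 in the table, summed to between 4902 and 6560 CPM and between 4489 and 7199 CPM, most of it Gsn, and endothelial markers, 10 of 12, to between 8044 and 9213 CPM and between 8489 and 10191 CPM. Cd36 made up most of the endothelial sum, and within it Vwf was at 106.1 ± 21.9 and 238.9 ± 123 CPM (SD, n = 4 and 3; edgeR adjusted p = 0.200) and Tie1 at 236.9 ± 15.6 and 195.7 ± 9.82 CPM (SD, n = 4 and 3; edgeR adjusted p = 0.185). Groups did not overlap in these genes, 1 higher and 1 lower of the 10 tested, beside 459 higher and 400 lower of all 7667 tested genes. Adipocyte markers, 5 of 8, summed to between 1127 and 1307 CPM and between 1073 and 1502 CPM, nearly all of it Fabp4, which the endothelial list also holds. The part of these cells in the results was not tested.

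The genes whose profiles over the 7 hearts were nearest to a member were found by the root mean square difference of log2 CPM after centring each gene on its own mean, among 5072 genes with a mean of at least 10 CPM over the 7 hearts. The list is a description, and Cd84 and Npl, with means of 7.24 and 9.94 CPM in control hearts, reached that mean only through the transferred hearts. For Ctss these were C1qa at 0.14, Ifi207 at 0.15 and Cd84 at 0.18, where the median gene was at 0.62. C1qa is a subunit of complement C1q made by macrophages, Ifi207 belongs to an interferon-inducible family, and Cd84 is a leukocyte surface receptor. For Ctsc they were Mrc1 at 0.09, Npl at 0.10 and C1qc at 0.10, against a median of 0.44. Mrc1 is the mannose receptor of resident macrophages. For Ctsz they were Axl at 0.08, Emcn at 0.09 and Samhd1 at 0.09, against a median of 0.27, and Emcn is an endothelial sialomucin.

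The hearts carry identifiers of 2 forms, with a letter prefix in control h1 and transferred h1 and with numbers alone in the other 5. Within those 5 hearts the log2 fold change was 0.93 for Ctss, 0.72 for Ctsc, 0.22 for Cst3, 0.19 for Ctsz, 0.08 for Ctsa and 0.03 for Ctsd, and no member passed (edgeR adjusted p from 0.268 to 0.942). Between the 2 hearts with a prefix Ctss was at 46.7 and 120.2 CPM and Ctsz at 92.1 and 132.4 CPM, and a test was not possible there. With the form as a covariate the log2 fold change of Ctss was 1.05 (edgeR adjusted p = 0.130).

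**Figure D5:**
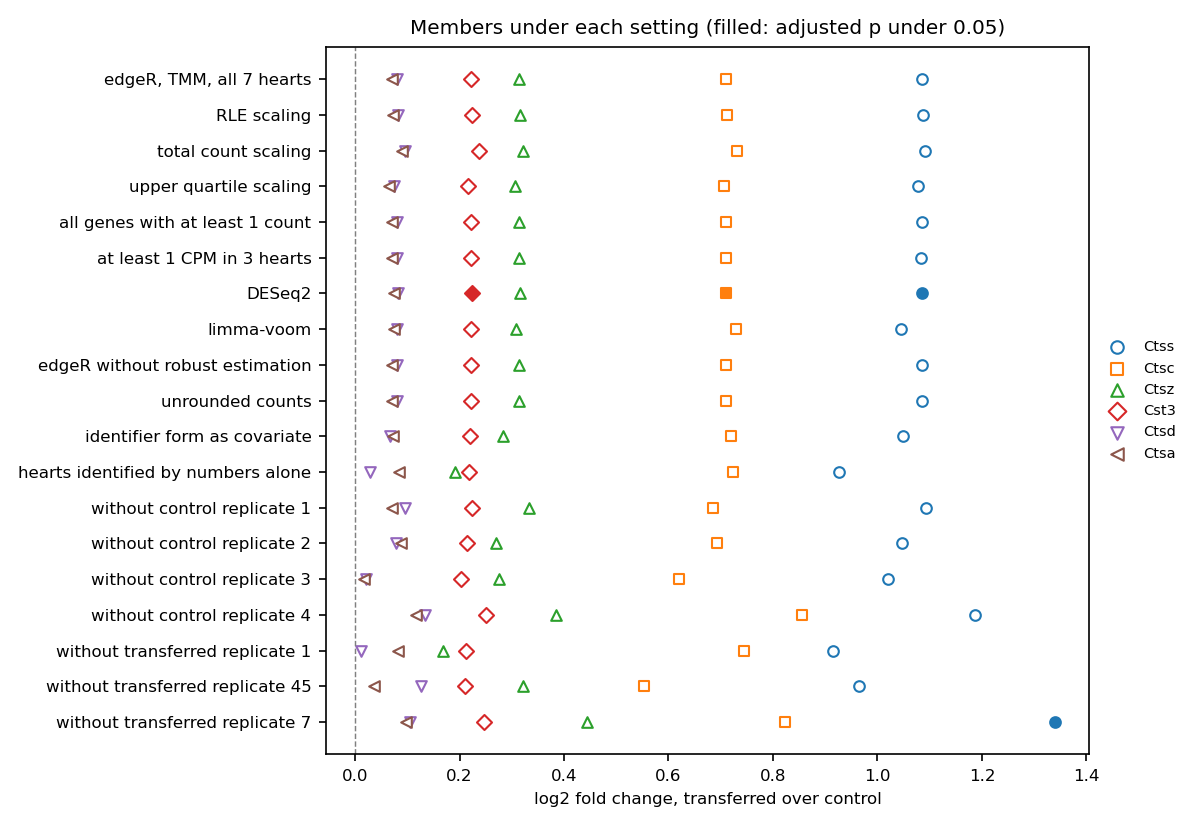
Log2 fold change of the 6 tested members under each setting of scaling, filter, test and hearts, with filled symbols for an adjusted p-value under 0.05. Every value is above 0, Ctss is filled with DESeq2 and without transferred heart h7, and Ctsc and Cst3 are filled with DESeq2 only.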

How the data were processed

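The authors deposited a table of estimated counts per gene, not normalized, in which 4.63% of values have a fractional part. Per the submitters' processing notes, bcl2fastq 2.20.0.422, cutadapt 2.5, STAR 2.7.2b, featureCounts 1.6.4 and DESeq2 1.22.2 were used with build GRCm38.p6. Their settings, including the use of strand, are not given in the sources used here. The table analysed holds 20343 complete rows on chromosomes 1 to 7 and the start of 8, and other genes, such as Ctsb and Ctsl, are not analysed here. Totals are therefore sums over this part and not library depths.

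Counts were rounded, filtered with filterByExpr, scaled by TMM and tested with the edgeR 4.0.16 quasi-likelihood test with robust estimation in R 4.3.3 on all 7 hearts, with Benjamini-Hochberg adjustment over 7667 genes and a threshold of 0.05. Members and ratios were also tested by exact two-sided permutation over 35 splits, for CPM as log2(CPM + 0.1). The procedure was tested on simulated data. Profile likeness used log2 CPM with a prior count of 2. Alternatives were other scalings and filters, DESeq2 1.42.0, voom of limma 3.58.1, no robust estimation, unrounded counts, the identifier form and left-out hearts. Members, lists and motifs were chosen with earlier results of these data known. All 9 members are named, with up to 3 genes of smallest p-value in each pathway list and the 3 nearest profiles for Ctss, Ctsc and Ctsz; those for Cst3 are not reported here. For marker lists other than the macrophage list summed levels are given. Other genes, such as Smpd1, Mertk, Itgax, Siglech, Vwf, Tie1 and Tpp1, were named after their values were seen. The ratio of Cst7 to Cst3 was not computed, since Cst7 was under 3 counts in every heart. The upstream windows were taken from RefSeq, where 8 of the 9 members matched by symbol.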

Additional observations from a re-analysis of the deposited data

How the results depend on the processing

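The log2 fold changes of all 6 tested members stayed above 0 in each of the 18 alternatives, from 0.92 to 1.34 for Ctss and from 0.55 to 0.86 for Ctsc, with edgeR, DESeq2 or voom adjusted p from 0.000126 to 0.34 and from 0.00466 to 0.348. Against 0 members past the threshold, DESeq2 gave 3, and leaving out 1 heart gave from 0 to 1, the 1 being Ctss without transferred heart h7. Each of edgeR, DESeq2 and voom gave 4 members an unadjusted p-value under 0.05 with all hearts. Beside 954 genes in all by edgeR, that count was 2 without control heart h2 (658 genes), without transferred heart h45 (706) or within the hearts identified by numbers alone (1054). It was 3 without control heart h1 (831) or h3 (968) or transferred heart h1 (1140). Over all genes, 18 passed with edgeR, against 35 with total count scaling (26 higher and 9 lower, against 10 and 8), 81 with all genes with at least 1 count (66 higher and 15 lower) and 252 with DESeq2 (192 higher and 60 lower). With voom, the identifier form as a covariate and the hearts identified by numbers alone, 0 passed, with 907, 973 and 1054 at an unadjusted p-value under 0.05. Leaving out 1 heart gave from 0 to 140 genes, with 0 without control heart h1, h2 or h4 or transferred heart h45, 1 without control heart h3 and 140 without transferred heart h7. The cause of these differences was not tested. The log2 ratio of Ctss to Cst3 differed by 0.64 to 1.10 with 1 heart left out, and by 0.65 within the hearts identified by numbers alone, where the smallest exact permutation p is 0.1. For Ctsz to Cst3 the difference changed sign without transferred heart h1, ranging from -0.046 to 0.195 with 1 heart left out, and was -0.028 within the hearts identified by numbers alone. Counts of at most 10 for Ctsk, Ctse and Cst7 limit what can be said of them. No paired analysis was possible because the groups share fewer than 2 replicate numbers in the labels.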
